A study of Mus musculus with 12 samples.

Results

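The genes described here are Ttyh1, Rtn1, Tmem59l, Mmd2, Blnk, Syde2, Mreg and Fam151a, 8 of the 15964 genes on the chips, and they were named as markers that set MIN6 clone 4 cells apart from parental MIN6 cells. All probe sets that carry exactly 1 of these symbols in the platform annotation were taken, which gave 17 probe sets of 36701 (controls left out). The genes had been picked from large differences between clone 4 and parental cells on these same arrays. Their values in that comparison are therefore a description, without a test. The differences with passage come from the same 4 arrays of a chip and are given as a description too. The choice of the genes did not use how their relatives and chromosomal neighbours stood. The list of relatives was drawn up with earlier results of these data known.

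MIN6 is an insulin-secreting line that came from an insulinoma of a mouse. Clone 4 is a single subclone of it, obtained by limiting dilution from parental cells of low passage. The arrays hold parental cells passaged 17 to 20 times (Pr-LP) or 35 to 40 times (Pr-HP), and clone 4 cells passaged 17 to 20 times (C4-LP) or 40 to 50 times (C4-HP). All were kept in the same high-glucose medium, and no agent was given. The study asked which genes accompany glucose-stimulated insulin secretion, which the parental line loses with long culture and clone 4 keeps. Each population was hybridised once to each of the Affymetrix U74 version 2 chips A, B and C, so there were 12 arrays and no replicates, and clone 4 at high passage had been carried further than Pr-HP.

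The genes have varied roles. Ttyh1 encodes a tweety family membrane protein, Rtn1 a reticulon that shapes the endoplasmic reticulum, and Tmem59l a Golgi membrane protein related to Tmem59, and all of these are best known from brain. Mmd2 belongs to the family of progestin and adipoQ receptors, Blnk is the adaptor that links the B cell receptor kinase Syk to its downstream enzymes, Syde2 is a GTPase-activating protein, and Mreg, melanoregulin, acts in organelle transport in pigment cells. Fam151a is a little-studied gene. β cells share much of their secretory machinery with neurons, and many neural genes are normally active in them.

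An intensity is given below in the deposited units, on a linear scale. Array medians were alike within each chip, from 214.2 to 216.0 units for chip A, 161.9 to 162.7 for chip B and 92.5 to 92.9 for chip C. The 20th percentile of a chip (67.3, 58.6 and 29.1 units on chips A, B and C) was used as a floor under which values have no order. Of the β cell markers 10 of 15 had a probe set with their name in the platform annotation, and all 10 reached 100 units in at least 1 population. Their summed intensity lay between 39787 and 44745 in the 4 populations. Ins1, an insulin gene, and Pcsk2, a prohormone convertase, had no named probe set in the annotation and are not in these sums. Ins2 was the largest part, and the paper warns that insulin signals might exceed the linear range. The sums hide changes of single markers. Neurod1 read 604 in Pr-LP and 211 in Pr-HP, Pcsk1 425 and 1379 in these, and Slc2a2 464 in C4-LP and 1754 in C4-HP. The summed alpha cell markers, 3 of 5 named and mostly Gcg and Ttr, stood at 985 in Pr-LP, 10842 in Pr-HP, 6391 in C4-LP and 4345 in C4-HP. In Pr-HP the sum was nearly all Gcg (10552), while Ttr had its lowest value there (248). Irx2, the third, lay under the floor in both parental populations. The part of the alpha cell markers in the results below was not tested. The 3′ to 5′ ratio of Gapdh, a measure of RNA quality, had its lowest value of each chip in Pr-HP (0.867, 0.953 and 1.16), with 0.968 to 1.31 in the other arrays.

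Of the 17 probe sets, 14 reached 100 units in at least 1 population, 1 of Syde2 stayed below it, and 1 each of Ttyh1 and Rtn1 lay under the floor on all 4 arrays. Both clone 4 values lay above both parental values for 4 of the 14 probe sets (Ttyh1 with 2, Tmem59l, and a nearly level one of Mmd2), against 17.3% of all 23962 probe sets that reached 100 units. Both lay below in 3 of the 14 (Mreg with 2, and Fam151a), against 17.2% of all. The choice of the genes used this contrast and nothing is read from these counts. Rtn1, Blnk, Syde2 and the strongest probe set of Mmd2 did not separate the lines, so that as markers of clone 4 they held against 1 parental population and not against both.

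**Figure D1:**
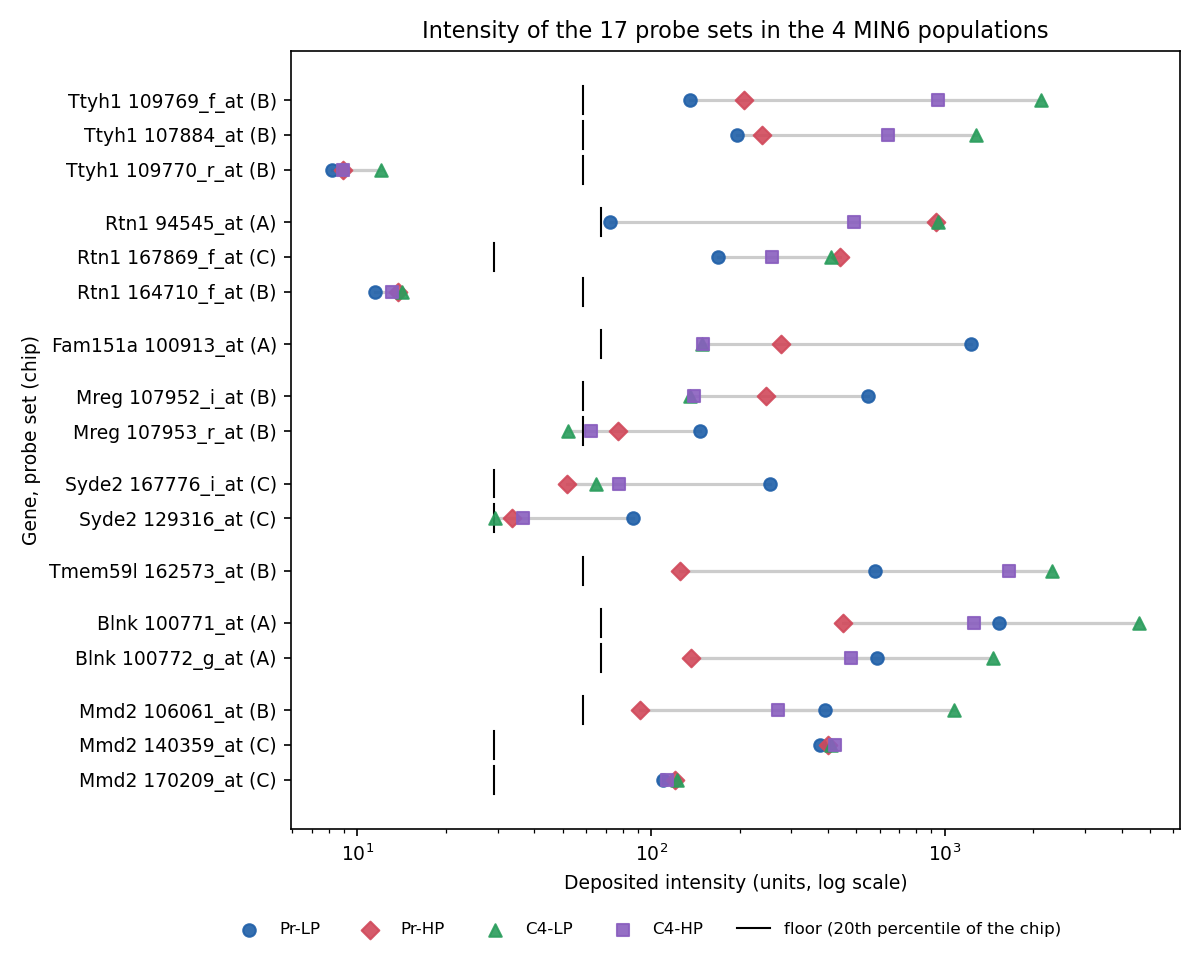
Deposited intensity (horizontal axis, log scale) of the 17 probe sets in the 4 populations, with 1 point per array, the chip in brackets and a vertical tick at the floor of the chip. The C4-LP and C4-HP points lie to the right of both parental points for Ttyh1 and Tmem59l, to the left for Fam151a and Mreg, and are mixed with them for Rtn1, Syde2 and Blnk.

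For the sequences just upstream, 4 genes were taken. Ttyh1 and Tmem59l were taken because they separated the lines with higher values in clone 4. Blnk and Mmd2 were taken because their main probe sets had the most alike profiles. Fam151a and Mreg separated the lines with lower values in clone 4 and are not shown. The sequences of the 4 genes are printed below. They are RefSeq sequences of the mouse build GRCm38.p6, 250 bases each, read on the strand of the gene and ending at the base before its start, at chr7:4119280-4119529 (plus strand) for Ttyh1, chr8:70487349-70487598 (minus strand) for Tmem59l, chr19:40994222-40994471 (minus strand) for Blnk and chr5:142608753-142609002 (minus strand) for Mmd2. Capitals mark the words searched on both strands, which were the cAMP response element TGACGTCA, the octamer ATTTGCAT, the TATA box word TATAAA, the CCAAT box word and the GC box GGGCGG.
Ttyh1: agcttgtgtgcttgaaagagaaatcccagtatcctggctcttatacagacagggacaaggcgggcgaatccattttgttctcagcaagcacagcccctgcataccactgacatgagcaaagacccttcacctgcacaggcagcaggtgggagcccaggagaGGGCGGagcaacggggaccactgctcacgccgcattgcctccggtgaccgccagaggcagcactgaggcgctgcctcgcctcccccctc
Tmem59l: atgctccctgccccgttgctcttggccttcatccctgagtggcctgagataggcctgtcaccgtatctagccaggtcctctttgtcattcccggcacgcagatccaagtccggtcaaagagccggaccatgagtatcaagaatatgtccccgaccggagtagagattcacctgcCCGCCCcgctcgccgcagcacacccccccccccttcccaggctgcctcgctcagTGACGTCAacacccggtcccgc
Blnk: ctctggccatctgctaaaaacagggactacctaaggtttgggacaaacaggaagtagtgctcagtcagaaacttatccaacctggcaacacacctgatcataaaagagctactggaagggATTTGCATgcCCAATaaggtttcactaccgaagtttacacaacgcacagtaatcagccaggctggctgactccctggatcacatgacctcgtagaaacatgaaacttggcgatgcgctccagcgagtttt
Mmd2: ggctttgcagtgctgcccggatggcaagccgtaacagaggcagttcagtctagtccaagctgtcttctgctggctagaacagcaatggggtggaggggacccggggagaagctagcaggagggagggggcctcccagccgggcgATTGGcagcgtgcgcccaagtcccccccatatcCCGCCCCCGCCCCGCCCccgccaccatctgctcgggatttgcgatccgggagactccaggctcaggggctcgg
The 8 genes have 11 such windows, since Rtn1 and Mreg have several starts. The cAMP response element stood in the window of Tmem59l alone, and in 1.55% of 32851 windows of all genes. The octamer, known from B cell promoters, stood in that of Blnk alone and in 1.6% of all. TATAAA was in 0 of the 11 windows and 12.4% of all, CCAAT in 6 of 11 and 33.8%, and the GC box in 6 of 11 and 32.7%. The windows of Mreg overlap almost fully, so the same CCAAT was counted in each of them. The windows of Blnk and Mmd2 both hold CCAAT, while the run of overlapping GC boxes was in that of Mmd2 alone of the pair. A match is a description of the letters and not a binding site.

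Ttyh1 gave the clearest separation. Its main probe set, the one with the highest mean (109769_f_at, chip B), read 135 in Pr-LP, 206 in Pr-HP, 2120 in C4-LP and 948 in C4-HP. Both clone 4 arrays were high, both parental arrays were low, and the lower clone 4 value was still 4.59 times the higher parental value. The clone 4 mean was 11.3-fold above Pr-LP and 7.43-fold above Pr-HP. In bulk RNA, fewer expressing cells and less RNA per cell cannot be told apart, here and for every gene below.

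A second probe set of Ttyh1, which was designed on a different target sequence (107884_at, chip B), read 197, 238, 1277 and 639 for the populations in the same order. It ranked the 4 populations as the main probe set did, with smaller ratios of 4.87-fold over Pr-LP and 4.02-fold over Pr-HP. The probe set 109770_r_at, built on the target of the main one, lay between 8.18 and 12.1 units, under the floor of 58.6, and gave no direction. Within clone 4, Ttyh1 was 2.24-fold lower in C4-HP than in C4-LP by the main probe set and 2.00-fold lower by the other. Among all probe sets that reached 100 units, 6 (0.025%) had a lowest clone 4 value more than 3 times the highest parental value. The other 5 were those of Lefty1 (6.04 times), Ndn (3.42), Tmem45a (at least 3.42) and Ttr (3.13), and 1 without a single gene name.

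Rtn1 was high in 3 of the 4 populations. Its main probe set (94545_at, chip A) read 72.6 in Pr-LP, 936 in Pr-HP, 949 in C4-LP and 490 in C4-HP. Pr-LP stood alone near the floor of 67.3, and Pr-HP was level with C4-LP and above C4-HP. The clone 4 mean was 9.91-fold above Pr-LP but 1.30-fold below Pr-HP. A probe set on chip C (167869_f_at) read 169, 439, 410 and 257, again with Pr-LP lowest and with C4-HP below Pr-HP and C4-LP, and its ratio of the clone 4 mean to Pr-LP was 1.97. The probe sets shared the direction of this difference and not its size. The third probe set (164710_f_at, chip B) lay between 11.5 and 14.2 units, under the floor.

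Tmem59l had 1 probe set (162573_at, chip B), which read 576 in Pr-LP, 125 in Pr-HP, 2324 in C4-LP and 1649 in C4-HP. The clone 4 arrays were both above the parental arrays, the lower of them by 2.86 times over Pr-LP. The clone 4 mean was 3.45-fold above Pr-LP and 15.8-fold above Pr-HP. The parental arrays were themselves 4.60-fold apart, with Pr-HP lower. The paper also measured Tmem59l by quantitative RT-PCR with replicates. It reports high expression in Pr-LP and clone 4 but not in Pr-HP, with both clone 4 populations above Pr-LP.

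Mmd2 was measured by 3 probe sets that did not tell the same story. The main one (106061_at, chip B) read 389 in Pr-LP, 91.4 in Pr-HP, 1072 in C4-LP and 271 in C4-HP. It was highest in C4-LP and lowest in Pr-HP, with Pr-LP above C4-HP, so that the lines overlapped. Those on chip C were nearly level, with 376, 401, 410 and 422 for 140359_at and 110, 120, 123 and 113 for 170209_at. In 140359_at both clone 4 values were above both parental values, but the nearest pair differed by 1.02 times. The 3 were designed on different target sequences, and which transcripts of the gene each one detects was not tested.

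Blnk had a profile like that of the main Mmd2 probe set, with 1531 in Pr-LP, 450 in Pr-HP, 4592 in C4-LP and 1260 in C4-HP (100771_at, chip A). C4-LP was highest, Pr-HP was lowest, and Pr-LP lay above C4-HP. The clone 4 mean was 1.91-fold above Pr-LP and 6.51-fold above Pr-HP. A second probe set on the same target (100772_g_at, chip A) read 586, 137, 1454 and 478, and kept this order. The B cell markers were level. Of them 5 of 6 were named, their summed intensity lay between 995 and 1052, and Ptprc, the common leukocyte antigen, was under the floor on all 4 arrays.

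Syde2 was high in Pr-LP and low in the other populations. Its main probe set (167776_i_at, chip C) read 254 in Pr-LP, 51.6 in Pr-HP, 64.7 in C4-LP and 77.5 in C4-HP, so that Pr-HP was the lowest and not clone 4. The other (129316_at, chip C, on a different target) read 86.8, 33.6, 29.4 and 36.7, close to the floor of 29.1 except in Pr-LP. The clone 4 mean was 3.57-fold and 2.63-fold below Pr-LP by the 2 probe sets. Against Pr-HP they gave log2 differences of 0.46 and −0.02.

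Mreg was highest in Pr-LP, lower in Pr-HP and lowest in clone 4. The main probe set (107952_i_at, chip B) read 548 in Pr-LP, 247 in Pr-HP, 135 in C4-LP and 140 in C4-HP, and the other probe set on that target (107953_r_at) read 146, 77.0, 52.0 and 62.4. The probe sets thus ranked the populations alike. By the main probe set clone 4 was 3.98-fold below Pr-LP and 1.79-fold below Pr-HP. By the other it was at least 2.49-fold below Pr-LP, since its clone 4 mean lay under the floor.

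Fam151a had the lowest ratio of clone 4 to Pr-LP among the 8 genes. Its only probe set (100913_at, chip A) read 1225 in Pr-LP, 276 in Pr-HP, 149 in C4-LP and 151 in C4-HP. The clone 4 arrays were almost equal, 8.17-fold below Pr-LP and 1.84-fold below Pr-HP. Pr-HP was 4.43-fold below Pr-LP, so that most of the distance on a log scale was also found between the parental arrays.

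Setting the parental populations one by one against clone 4 sorted the genes. Against Pr-LP, 4 of the 14 probe sets were past 3-fold higher in clone 4 (Ttyh1 with 2, Rtn1 and Tmem59l; 0.221% of all) and 3 past 3-fold lower (Fam151a, Mreg and Syde2; 0.0918% of all). Against Pr-HP, 6 were past 3-fold higher (Blnk with 2, Ttyh1 with 2, Tmem59l and Mmd2; 0.338% of all) and 0 lower (0.396% of all). Ttyh1 and Tmem59l were the genes past 3-fold against both. These ratios share the clone 4 arrays, and the genes were picked for differences between clone 4 and parental cells, so the choice bears on both. Between the low passages alone (C4-LP against Pr-LP) again 4 were past 3-fold higher (0.467% of all) and 3 lower (0.171% of all), of the same genes as above. Between the high passages (C4-HP against Pr-HP) 3 were past 3-fold higher, Ttyh1, Tmem59l and 1 of the 2 of Blnk (0.292% of all), and 0 lower (0.501% of all). The median size of the log2 difference over the 14 probe sets was 1.55 against Pr-LP and 0.86 against Pr-HP. Over all 23962 it was 0.12 and 0.13. The choice of the genes bears on this gap, and nothing is read from it.

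**Figure D2:**
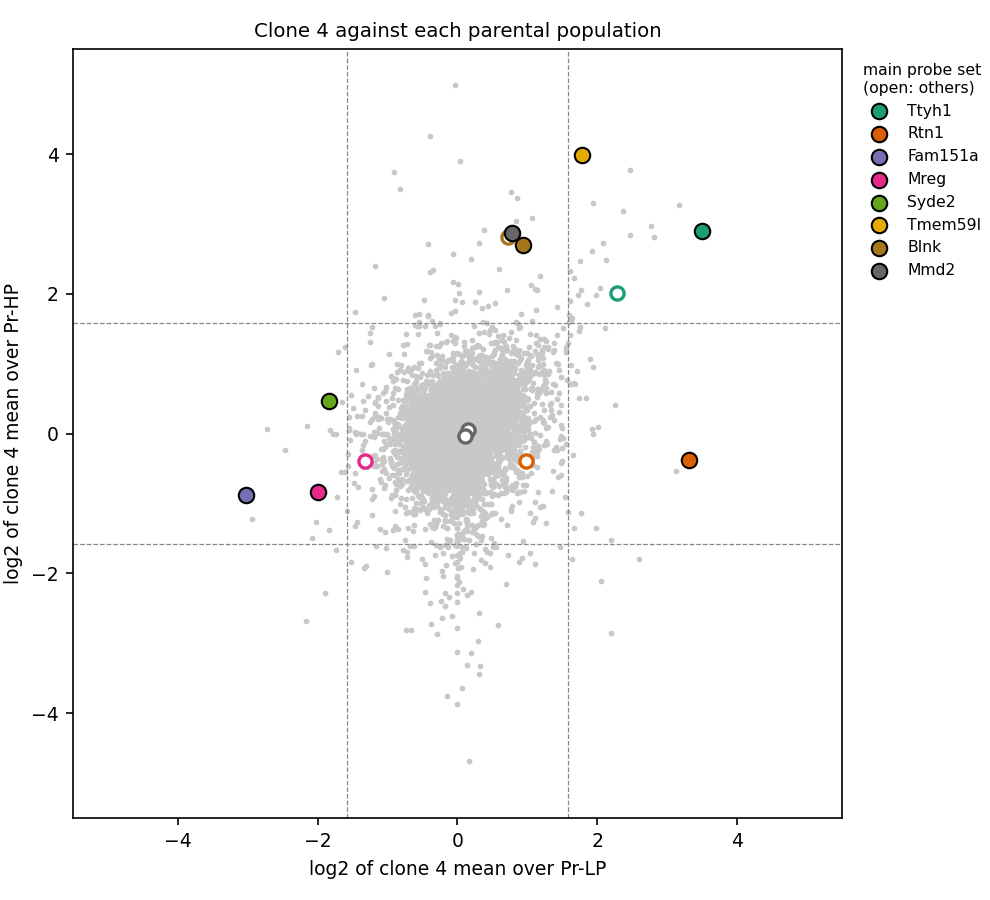
Log2 of the clone 4 mean over Pr-LP (horizontal axis) and over Pr-HP (vertical axis), with every probe set that reached 100 units in grey, main probe sets of the 8 genes as filled and their other probe sets as open circles. The dashed lines mark 3-fold. Ttyh1 and Tmem59l lie past both upper lines, Blnk and Mmd2 past the upper line on the vertical axis alone, and Rtn1 to the right at a log2 of 3.31 and −0.38.

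In the parental line most of the genes differed with passage. Between Pr-LP and Pr-HP, 6 of the 14 probe sets were past 3-fold lower in Pr-HP (Blnk with 2, and Fam151a, Mmd2, Syde2 and Tmem59l with 1 each; 0.451% of all) and 1 past 3-fold higher (Rtn1; 0.601% of all). Rtn1 had the largest ratio, with a 12.9-fold higher value in Pr-HP. Ttyh1 was 1.53-fold higher in Pr-HP, and 1.21-fold by its second probe set. The Pr-LP arrays are also part of the contrast that was used in choosing the genes, so the choice bears on these counts.

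In clone 4, Blnk and Mmd2 were the genes past 3-fold with passage. C4-LP and C4-HP are the arrays in which the genes were picked as well, so the choice bears on these values too. Between C4-LP and C4-HP, 3 of the 14 probe sets were past 3-fold lower in C4-HP (Blnk with 2, and Mmd2; 0.234% of all) and 0 higher (0.096% of all). Blnk was 3.65-fold and 3.04-fold lower at high passage in clone 4, and 3.40-fold and 4.28-fold lower in parental cells. For the main probe set of Mmd2 these were 3.95-fold and 4.26-fold, while its probe sets on chip C differed by at most 1.10-fold. Fam151a, Mreg and Syde2, which were lower in Pr-HP than in Pr-LP, gave log2 differences of 0.01, 0.05 and 0.26 between C4-HP and C4-LP. Rtn1 was higher in Pr-HP (log2 3.69) and lower in C4-HP (log2 −0.95), and with 1 array each this difference between the lines was not tested.

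A fit of passage with line as a second factor (limma, 1 residual degree of freedom) called 0 of 23340 probe sets at an adjusted p of 0.05, 0% of those tested, and so 0 of the 15 probe sets of these genes that entered. At an unadjusted p under 0.05 it had 839 of the 23340 probe sets, and nothing is read from that count. No p is given for a single gene, since the 8 genes were picked from the values that enter this fit. For the line coefficient the count at the adjusted threshold was 0 as well (0% of those tested). Of the 23340, 1054 had an unadjusted p under 0.05 for line, and nothing is read from that count either.

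**Figure D3:**
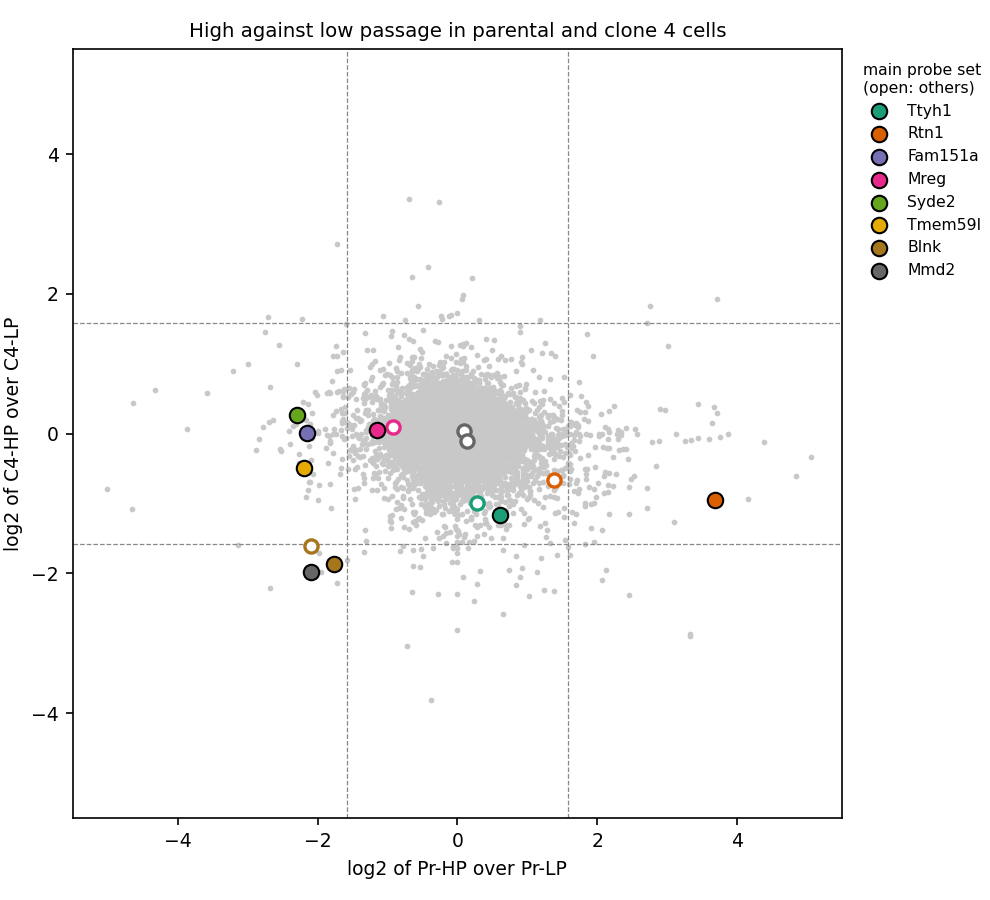
Log2 of Pr-HP over Pr-LP (horizontal axis) and of C4-HP over C4-LP (vertical axis), with all probe sets that reached 100 units in grey and those of the 8 genes in colour, main ones filled and others open. The dashed lines mark 3-fold. Blnk and the main probe set of Mmd2 lie in the lower left, Fam151a, Syde2, Mreg and Tmem59l to the left near 0 on the vertical axis, and Rtn1 far to the right at 3.69 and −0.95.

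Probe sets of the same gene were compared by the sign of their differences. Of the 6 genes with more than 1 probe set above the floor, 6 had the same sign in all of them for clone 4 against Pr-LP, 4 against Pr-HP (not Syde2 and Mmd2), and 5 for passage in each line (not Mmd2). Among all genes with several probe sets whose main one was past 3-fold, 90.9% of 22, 78.3% of 60, 82.7% of 75 and 83.3% of 18 had 1 sign for clone 4 against Pr-LP, clone 4 against Pr-HP, and passage in parental and in clone 4 cells. The choice of the genes bears on their signs, and nothing is read from the counts of the 6. The 6 genes include some of these 22, but Blnk and Mmd2 were not past 3-fold against Pr-LP. The chip C probe sets of Mmd2 were nearly level there, at log2 0.15 and 0.11. Over all 6211 genes with more than 1 probe set above the floor, the shares with 1 sign were 50.5%, 52.3%, 52.4% and 51.3% in the same order of comparisons. As a measure of likeness, the distance between 2 probe sets was taken over their log2 values centred on the 4 populations, where 0 means the same profile. It was 0.30 for Blnk and 0.63 for Mreg, whose pairs share a target, 0.66 for Syde2 and 1.06 for Ttyh1 on different targets, and 2.00 for Rtn1. For Mmd2 the main probe set stood 2.54 and 2.53 from those on chip C, which were 0.13 from each other.

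By the same distance, Blnk and Mmd2 were the closest of the 28 pairs of these genes (0.24), although their main probe sets lie on chips A and B. Each was the nearest to the other among 12779 named genes. The next for both were Slc4a10, a bicarbonate transporter (0.50 from Blnk and 0.68 from Mmd2), and Cd44, a hyaluronan receptor (0.76 and 0.77). Fam151a and Mreg were the next closest pair of the 8 genes (0.89), and Ttyh1 and Fam151a the farthest apart (5.47). In the upstream windows printed above, the pair shared the word CCAAT. That word stood in 33.8% of all windows and also in windows of Fam151a, Mreg and Rtn1, so it was not particular to the pair. The distances are descriptions over 4 points, which share their arrays with many other genes.

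For Ttyh1 the nearest genes were Tmem45a (0.74), Lefty1, an inhibitor of Nodal signalling (0.85), and Slitrk5, a neuronal membrane protein (1.09). Both parental values of Tmem45a lay under the floor, as did the Pr-HP value of Lefty1. Slitrk5 read 227 in Pr-LP, 275 in Pr-HP, 1611 in C4-LP and 639 in C4-HP, in the same order as Ttyh1. For Rtn1 they were Id1, which blocks helix-loop-helix factors (0.94), Gcg, the glucagon gene (1.25), and Etv5, an ETS factor (1.38). Gcg, with 502, 10552, 3175 and 2915, was lowest in Pr-LP, as Rtn1 was, and highest in Pr-HP. Nearest to Tmem59l were Ndn, necdin (0.67), the non-coding RNA Meg3 (0.81) and the elongation factor gene Eef1a2 (0.95). Ndn and Meg3 are imprinted genes, and both lay under the floor in Pr-HP, so their likeness rests partly on the floor.

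The genes that were highest in Pr-LP had other companions. Nearest to Fam151a were Cd9, a tetraspanin (0.77), Mreg (0.89) and the water channel gene Aqp4 (1.09). Cd9 lay under the floor in Pr-HP, and Aqp4 in Pr-HP and C4-HP. Nearest to Mreg were Atrnl1 (0.36), Epb41l5 (0.42) and Cldn3, a tight junction claudin (0.43). Atrnl1 lay just under the floor in C4-HP. Nearest to Syde2 were Cacng4 (0.39), Esyt1, an extended synaptotagmin (0.44), and Gad1, which makes GABA (0.46). Gad1 lay under the floor in all populations but Pr-LP, so its likeness rests partly on the floor. Esyt1 was high throughout, with 4168 in Pr-LP and 815, 1471 and 1592 in the others.

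The relatives and partners of these genes were counted by the same rule. Of 42 listed, 40 had a named probe set (Clnk and Lyn had none), 37 reached 100 units, and 0 were past 3-fold between clone 4 and Pr-LP. Over all probe sets 0.221% were past 3-fold higher and 0.0918% lower, so a count of 0 is no result about the relatives. The highest ratios over Pr-LP were those of Vav3 (2.37-fold) and Mmd (2.26-fold). Against Pr-HP there was 1 (Lcp2, lower in clone 4), between Pr-HP and Pr-LP there were 2 (Lcp2 and Mmd, higher in Pr-HP), and between C4-HP and C4-LP 0. Ttyh2 read 296, 190, 372 and 431 and Ttyh3 601, 451, 533 and 634 (parental low and high, then clone 4 low and high passage), beside the 11.3-fold difference of Ttyh1. The reticulons Rtn2, Rtn3 and Rtn4 gave log2 differences between clone 4 and Pr-LP of −0.10, 0.07 and −0.15, and the fellow genes Fam151b, Syde1 and Tmem59 gave −0.04, −0.12 and 0.09.

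Among the receptors related to Mmd2, Mmd was the exception, with 114 in Pr-LP, 536 in Pr-HP, 288 in C4-LP and 227 in C4-HP. It was thus highest where the main probe set of Mmd2 was lowest, and 4.70-fold above Pr-LP in Pr-HP. Of the 17 genes around Blnk in receptor signalling, Lcp2, an adaptor of the same family that acts in T cells, read 206 in Pr-HP and lay under the floor in the other populations, at least 3.06-fold lower. Vav3, a guanine nucleotide exchange factor, read 120, 158, 416 and 154, highest in C4-LP as Blnk was. Syk, the kinase upstream of Blnk, lay between 537 and 566 throughout. Mlph, Myo5a and Rab27a, which move melanosomes, had log2 differences of −0.19, 0.10 and −0.28 between clone 4 and Pr-LP, beside −1.99 for Mreg.

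**Figure D4:**
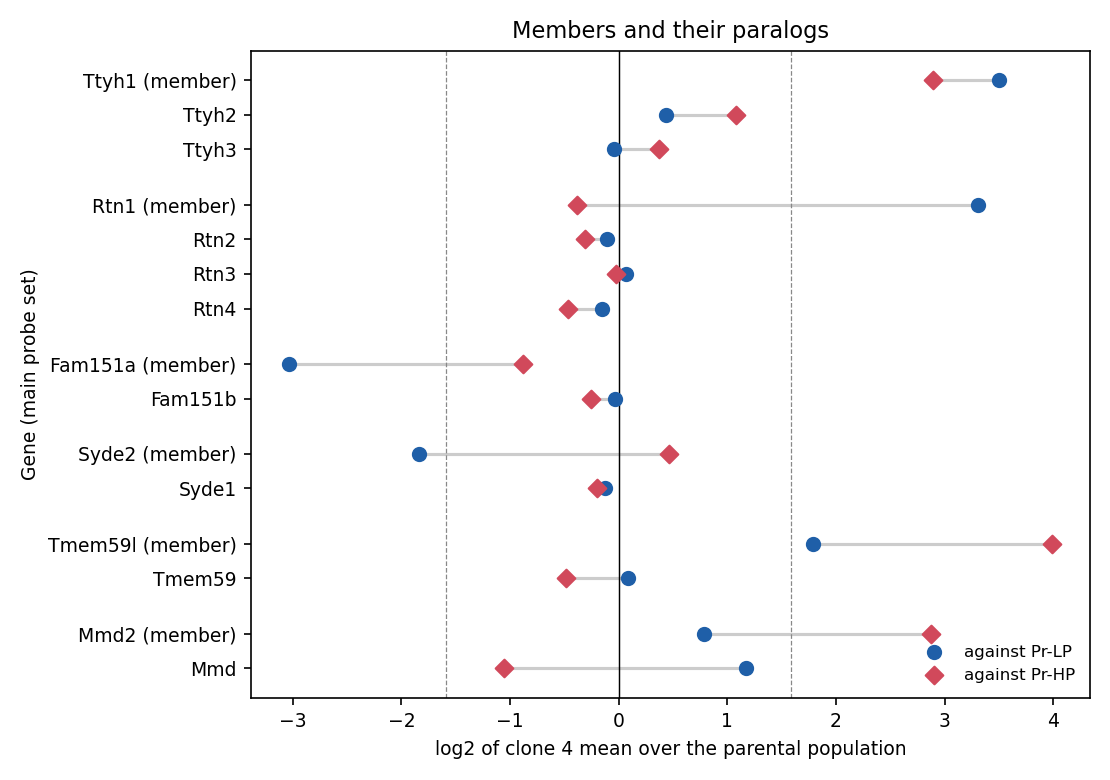
Log2 of the clone 4 mean over Pr-LP (circles) and over Pr-HP (diamonds) for 6 of the genes and their paralogs, main probe sets alone. The solid line marks no difference and the dashed lines 3-fold. The paralogs lie within the dashed lines in both comparisons, Mmd at 1.18 and −1.06, while each of the 6 genes is past them in at least 1.

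Chromosomal neighbours of these genes were counted likewise. The 8 genes lie on 8 different chromosomes, and the 3 nearest measured genes on each side of each made 48 neighbours. Past 3-fold between clone 4 and Pr-LP there were 0 of 48, beside 0.221% higher and 0.0918% lower over all probe sets, and nothing is read from this count. The median size of their log2 differences was 0.10, beside 0.12 over all probe sets. The largest was that of Dhrs7 near Rtn1, with 266 in Pr-LP, 355 in Pr-HP, 907 in C4-LP and 375 in C4-HP. Against Pr-HP there was 1 of 48, Slc29a4 near Mmd2, a monoamine transporter that read 1280, 206, 1138 and 1308. It was low in Pr-HP alone, where the main probe set of Mmd2 was lowest too, but unlike Mmd2 it was level in C4-LP and C4-HP.

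**Figure D5:**
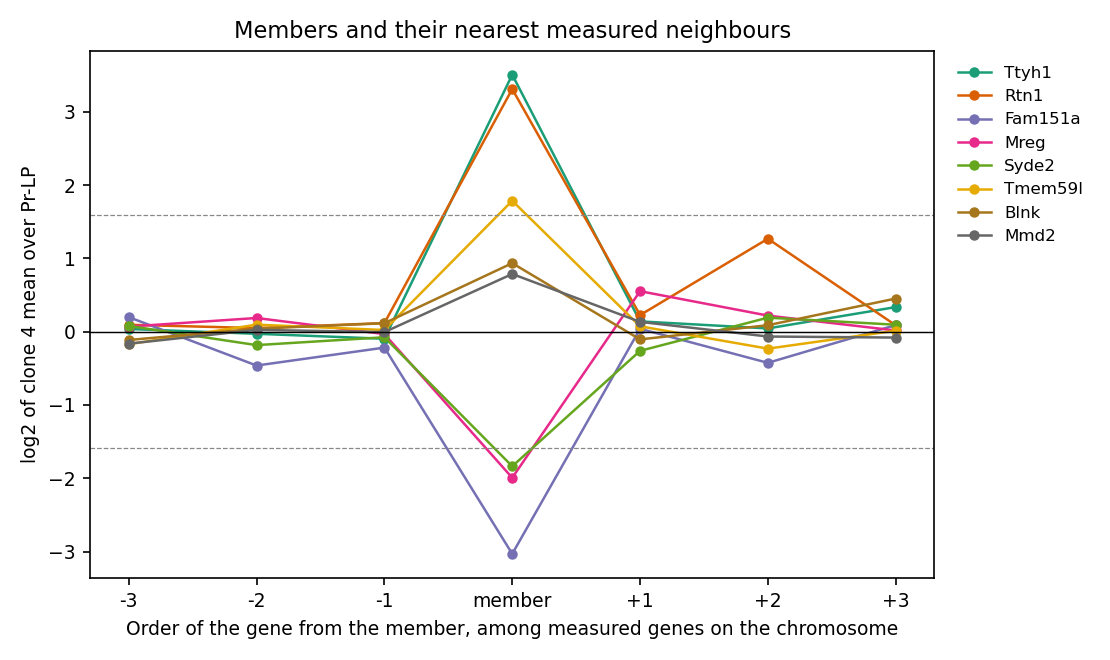
Log2 of the clone 4 mean over Pr-LP (vertical axis) for each of the 8 genes (centre) and its 3 nearest measured genes on either side, in chromosomal order (horizontal axis, no distances). The dashed lines mark 3-fold. The neighbours lie between −0.46 and 1.27, and the genes themselves between −3.03 and 3.50.

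Other cell type markers were looked at beside these genes. The summed neuron markers (5 of 5 named) were 4169 in Pr-LP and 4896, 4995 and 4895 in Pr-HP, C4-LP and C4-HP. Their members differed. Snap25 (442) and Tubb3 (1994) were lowest in Pr-LP, Map2 (1217) was highest there, and Syn1 and Rbfox3 had their lowest values in other populations. The summed glia markers (5 of 6, with S100b under the floor) were 1078 in Pr-LP and 769 to 786 in the others, and of them Aqp4 was past 3-fold lower in clone 4 than in Pr-LP. The melanocyte markers (5 of 6, with Tyr, the defining enzyme of pigment, under the floor) summed to between 2662 and 2872, beside the 3.98-fold difference of Mreg. The duct markers summed to 3497 in Pr-LP and to 2496, 2890 and 2891 in Pr-HP, C4-LP and C4-HP. Of them Krt19, a keratin, was past 3-fold lower in clone 4, with 223 in Pr-LP and values under the floor in the other populations. Pr-LP, where Fam151a, Mreg and Syde2 were highest, had the highest duct and glia sums. It also had the highest sums of the delta and PP cell, acinar, B cell, macrophage and melanocyte lists. A high sum in Pr-LP was thus not particular to duct and glia. The members of the duct and glia sums differed as well. Krt7 (2085) and Aqp4 (282) were highest in Pr-LP, as were Krt19, Cftr, Gfap and Mbp. Sox9 (688) and Slc1a3 (109) were lowest there, and Muc1 was higher in both clone 4 populations than in Pr-LP. Aqp4 was already named as near to Fam151a in pattern, so its high value in Pr-LP is no separate observation. The delta and PP cell, acinar, macrophage and fibroblast lists summed to between 880 and 1161, 1840 and 2161, 833 and 916, and 2395 and 2572. The part of these cell types in the results was not tested.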

How the data were processed

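Total RNA of the 4 populations was labelled with biotin by the authors and hybridised to 3 chips, 1 array per population and chip. The deposited files give an intensity per probe set, on a linear scale. The methods name the GeneChip software, and the summarisation and normalization were not given in the sources used here. Probe sets were named from the platform annotation, and 198 controls were left out. The genes and lists were chosen with earlier results of these data known.

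Folds are ratios on the linear scale, with clone 4 as the arithmetic mean of C4-LP and C4-HP, after values under the 20th percentile of a chip were raised to it. A difference counts as past 3-fold where the higher side reaches 100 units, and a ratio against a value under the floor is given as at least that over the floor. Passage and line were fitted with lmFit and eBayes of limma 3.58.1 (R 4.3.3) on log2 values within each chip, for probe sets with 1 array above the 40th percentile, with the Benjamini-Hochberg adjustment over the 3 chips. The 1 residual degree of freedom is the interaction of line and passage. The scripts were tested on simulated data. Distances are Euclidean, over log2 values centred over the 4 populations, with values under the floor raised to it. Named are all 8 genes, the 3 nearest in pattern to each, and relatives and neighbours past 3-fold or as examples. Neighbours were ordered by the RefSeq gene table. Alternatives were another scaling, floor, minimum, probe set choice, filter and model. The number of arrays limits the precision.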

Additional observations from a re-analysis of the deposited data

How the results depend on the processing

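With 1 array for each population and chip, no ratio has a replicate check within these arrays. Anything particular to a culture or an array cannot be told apart from line or passage. Quantile or median scaling, a floor at the 40th percentile or at 1 unit, and no minimum of 100 units left the counts of these genes' probe sets within 1.5 times of those reported. Taking only probe sets with plain _at names, which drops those of shared or incomplete design, left 1 in place of 3 separated with lower clone 4 values and 4 in place of 7 past 3-fold against Pr-LP. It also left 1 gene, Mmd2, with more than 1 probe set, so that 1 in place of 6 genes had the same sign throughout. All 3 changes come with fewer probe sets. In the other 50 settings of counts the result stayed within 1.5 times, and of those for single genes 0 reversed and 10 gave another size. Among these, the median over the probe sets of Mmd2 was 0.15 against Pr-LP and 0.05 against Pr-HP (log2), in place of 0.79 and 2.88, and that of Rtn1 2.14 in place of 3.31. In limma 0 probe sets were called for passage under any alternative, with 841 to 2847 at an unadjusted p under 0.05, and 0 for line, with 1054 to 3101. The highest of these counts, 2847 and 3101, came without the filter on low intensities. That fit held 36701 probe sets, of which 6550 had no residual spread. No paired analysis was possible because each population has 1 array on each chip and so no replicate number that could serve as a block. The fit of passage has line as its second factor and compares passages within each line.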
